A study of Mus musculus with 9 samples.

Results

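The genes described here are 109 protease inhibitors and their close relatives among the 27179 genes counted in sorted luminal cells of the mouse mammary gland. The rule that picks them reads gene symbols and no measured value: symbols that begin with Serpin, symbols that begin with Wfdc, Cst or Spink followed by a digit, and the genes Slpi, Csta1, Cstb, Spint1 and Spint2. The set holds 65 serpins, 19 WAP domain proteins (the Wfdc genes and Slpi), 11 cystatins, 12 Kazal inhibitors (the Spink genes) and 2 Kunitz inhibitors (Spint1 and Spint2), of which 2 are annotated as pseudogenes.

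RNA was sequenced from 3 populations of lineage-negative cells sorted from adult mammary tissue, with 3 libraries each. All carried PR-cre, named for the progesterone receptor that Pgr encodes, and a YFP reporter, and they were separated by the surface receptor CD14 and by YFP. HR- LP were CD14+ and YFP-, HR+ LP were CD14+ and YFP+, and ML were CD14- and, per their sample labels, YFP+, whereas the design text of the series calls ML YFP-. A reporter that depends on Cre stays on in the descendants of a cell in which Cre was active, so it need not follow the present level of Pgr. Strain, age, the number of animals behind a library and whether libraries came from separate animals were not given, so p-values measure the spread between these libraries, which may be technical. The sample labels give no order of time or descent, so steps, ends, rises and falls below refer only to the order HR- LP, HR+ LP, ML. The libraries held between 27219103 and 108119756 counts. Summed levels of 4 luminal genes (Epcam, Krt8, Krt18, Krt19) lay between 11272 and 15062 CPM (counts set against a common library size, with TMM factors) in all 9 libraries. The progenitor genes Kit, Elf5, Cd14 and Aldh1a3 summed to between 4136 and 4753 CPM in HR- LP, 1384 and 1431 CPM in HR+ LP and 61.8 and 102 CPM in ML. Since CD14 was used to sort the cells, this sum is not independent of the sort. HR- LP replicate 3 stood apart from the other libraries of its population on the second principal component, and counts of calls without it are given beside those of the inhibitors, the proteases and the inhibitors of other families.

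Most proteases are held in check by dedicated inhibitors. Serpins trap serine proteases by a change of shape that destroys both partners, although some serpins have lost this activity and serve as hormone carriers or chaperones. Cystatins block lysosomal cysteine proteases such as the cathepsins. WAP, Kazal and Kunitz domains are small folds, stabilised by disulfide bonds, that plug the active site of serine proteases. In the mammary gland such inhibitors are secreted with milk, coat the ducts against proteases of leukocytes and bacteria, and restrain the proteases that remodel the gland.

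Few of the genes were expressed. Of the 109, 58 had a count in any library and 18 were expressed, meaning 1 CPM or more in all 3 libraries of at least 1 population, where 73.3% and 48.1% of all genes met these criteria. All 18 met the threshold in HR- LP, 15 in HR+ LP and 14 in ML, and 14 did so in all 3 populations. Slpi, Serpinf1 and Serping1 fell short of it in HR+ LP, and these together with Spink5 in ML. The expressed genes were 9 of 65 serpins, 4 of 19 WAP domain proteins, 2 of 11 cystatins, 1 of 12 Kazal inhibitors and both Kunitz inhibitors.

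The genes sit in clusters of tandem copies, and within each cluster few copies were expressed. On chromosome 12 (103616675 to 104414334, mm10) lie 25 clade A serpins, relatives of antitrypsin that the liver secretes into plasma. Of these, 4 had a count and 0 were expressed. The highest, Serpina3n, an acute-phase inhibitor, had a count in 1 HR+ LP library (0.156 CPM) and 1 ML library (0.0638 CPM) and was at 0 in the other 7. Clade B serpins, which stay inside the cell, form a cluster of 12 on chromosome 1 (106861175 to 107608978), in which Serpinb5 and Serpinb8 were expressed, and one of 16 on chromosome 13 (32842092 to 34002794), in which Serpinb6a and Serpinb9 were. A cluster of 15 WAP genes on chromosome 2 (164176325 to 164745994) had 3 expressed genes, Wfdc2, Wfdc3 and Slpi. In the cystatin cluster of 7 genes on the same chromosome (148768618 to 149410278), which in mouse is known mainly for genes of the male reproductive tract, Cst3 alone was expressed. The 27 genes with a count that were too low to be tested peaked at 1.15 CPM in any library, reached by Serpinb12 in HR- LP replicate 3.

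**Figure D1:**
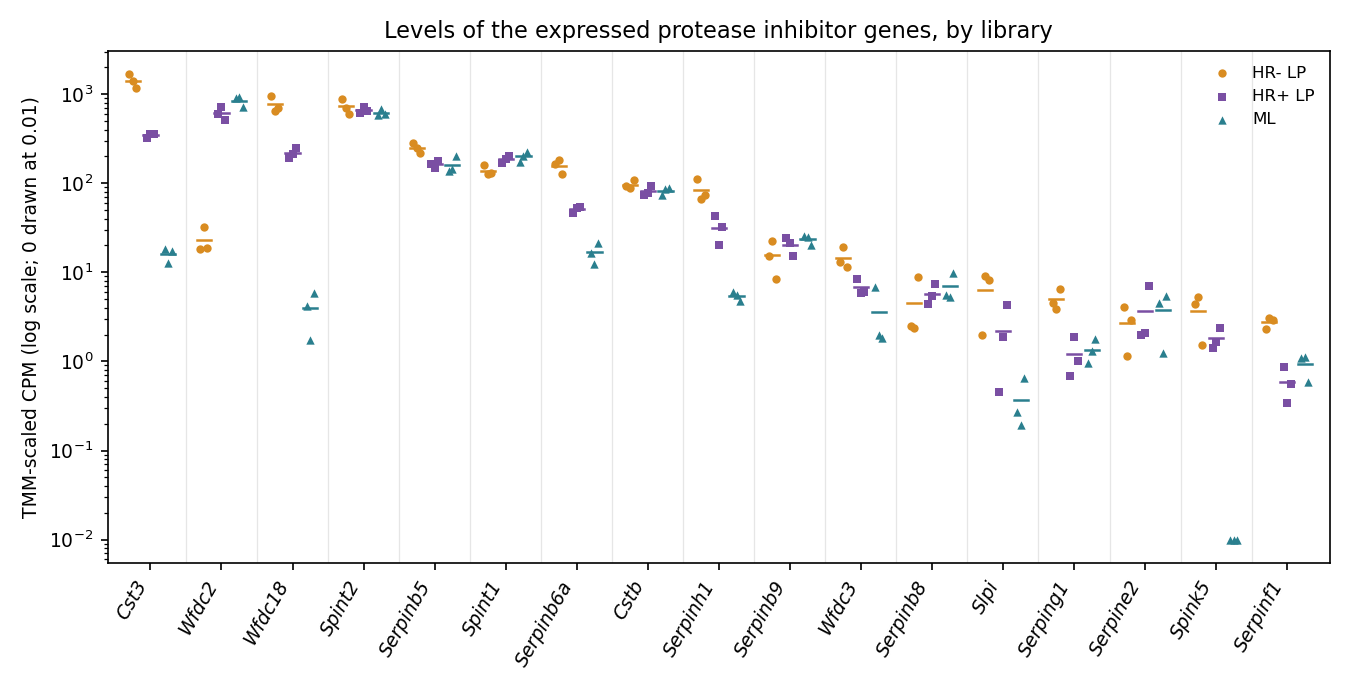
Level of 17 of the 18 expressed inhibitor genes in each of the 9 libraries, in TMM-scaled CPM on a log axis, with one point per library and one colour per population; a value of 0 is drawn at 0.01. Cst3 and Wfdc18 fall from HR- LP to ML, Wfdc2 runs the other way, and Spint2 and Cstb stay level.

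A few genes made up nearly all of the inhibitor RNA, and which ones differed between populations. To compare genes, counts were set per length as RPKM (TMM-scaled CPM per kilobase of the deposited gene length). The 109 genes summed to 4325 ± 730 RPKM in HR- LP, 2528 ± 163 in HR+ LP and 1963 ± 152 in ML (SD, n = 3). In HR- LP, Cst3 held 43.9 ± 2.23% of this sum and Wfdc18 32.5 ± 2.93%. In HR+ LP the sum was spread over Wfdc2 at 34.0 ± 4.42%, Cst3 at 18.4 ± 0.901%, Spint2 at 17.8 ± 0.320% and Wfdc18 at 15.9 ± 2.26%. In ML, Wfdc2 alone held 60.2 ± 4.14%, Spint2 held 21.7 ± 1.27% and Cst3 1.13 ± 0.265%. The 65 serpins together held 5.34 ± 0.40%, 4.84 ± 0.640% and 4.80 ± 1.2%, so the smaller families supplied most of the transcripts in each population. In bulk RNA, fewer cells that express a gene and less RNA of it per cell cannot be told apart, here and in all comparisons that follow.

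**Figure D2:**
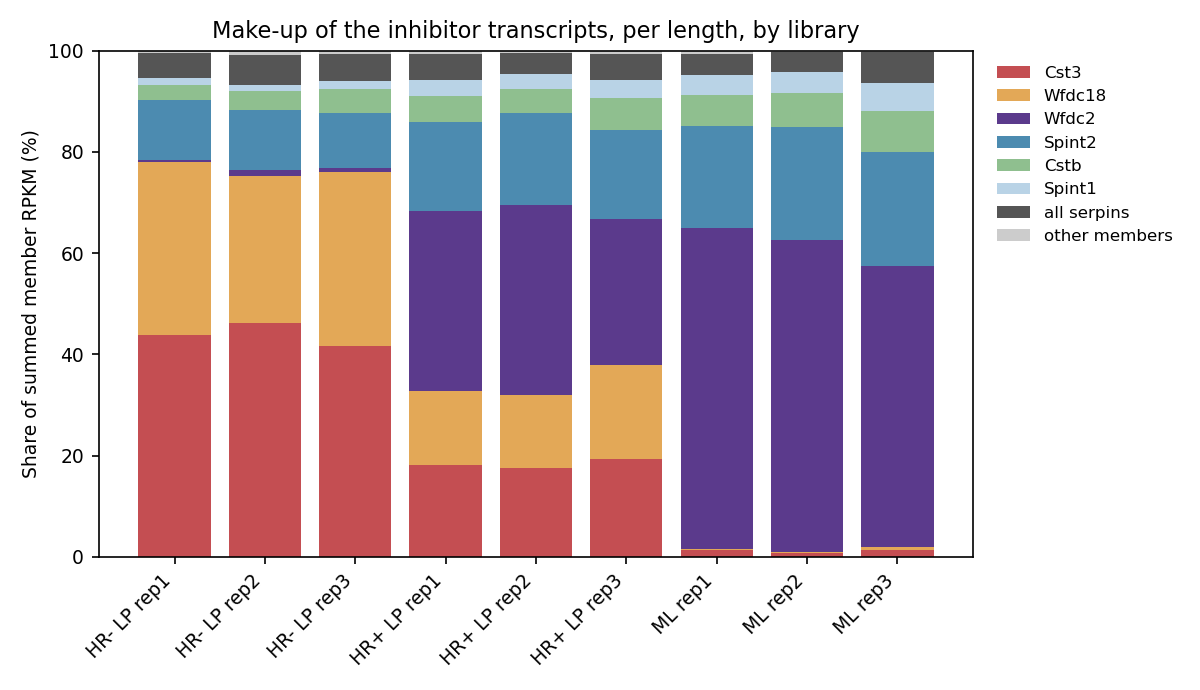
Share of the summed RPKM of all 109 inhibitor genes taken by single genes, in percent, as 1 stacked bar for each of the 9 libraries. In HR- LP, Cst3 and Wfdc18 take most of each bar, and in ML Wfdc2 takes between 55.5% and 63.3%.

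Because Cst3, Wfdc18 and Wfdc2 carried these contrasts, the 250 bases before their annotated starts (RefSeq, GRCm38.p6) are shown, each in the direction of transcription. The window of Cst3 lies at chr2:148875513-148875762 on the minus strand, that of Wfdc2 at chr2:164562465-164562714 on the plus strand and that of Wfdc18 at chr11:83708754-83709003 on the plus strand. Capitals mark matches on either strand to 3 motifs. Promoters without a fixed start often hold the GC box GGGCGG. Fixed starts are often set by the TATA box TATAAA. The progesterone receptor recognises the short motif AGAACA.
Cst3: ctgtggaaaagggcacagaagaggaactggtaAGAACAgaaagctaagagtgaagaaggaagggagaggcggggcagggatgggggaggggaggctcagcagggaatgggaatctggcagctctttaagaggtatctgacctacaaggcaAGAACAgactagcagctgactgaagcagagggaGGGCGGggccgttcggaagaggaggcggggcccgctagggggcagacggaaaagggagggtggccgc
Wfdc2: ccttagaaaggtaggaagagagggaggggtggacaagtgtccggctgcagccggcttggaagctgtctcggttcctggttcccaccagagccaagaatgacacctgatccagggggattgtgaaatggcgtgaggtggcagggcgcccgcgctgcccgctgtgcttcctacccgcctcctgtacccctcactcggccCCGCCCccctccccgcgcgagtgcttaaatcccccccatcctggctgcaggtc
Wfdc18: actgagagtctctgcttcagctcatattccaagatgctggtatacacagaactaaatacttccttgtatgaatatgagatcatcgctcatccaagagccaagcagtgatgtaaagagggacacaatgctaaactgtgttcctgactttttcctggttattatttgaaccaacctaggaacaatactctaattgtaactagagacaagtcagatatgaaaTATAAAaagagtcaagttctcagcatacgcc
Wfdc18 has a TATA box that starts 31 bases before the start, whereas Cst3 and Wfdc2 have none and hold a GC box at 67 and 53 bases. Cst3 also holds a match to the receptor motif at 218 and at 100 bases, and Wfdc2 and Wfdc18 hold none. Among 27025 promoter windows of the same length, 32.9% hold the GC box, 13.0% the TATA box and 16.2% the receptor motif, so each is common. Matches to a forkhead motif (TGTTTAC, in 3.09% of windows), a STAT motif (TTCNNNGAA, 7.18%), an ETS motif (CCGGAA, 12.2%) and the full estrogen receptor element (0.0629%) were not found in these 3 windows. A match is a description of letters and not a sign of binding.

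Of the 109 genes, 31 had counts enough to be tested with edgeR's quasi-likelihood test. The p was adjusted over all 15910 tested genes, and genes were called at an adjusted p below 0.05. Between HR- LP and HR+ LP, 4 rose (Wfdc2, Serpina7 and Spint1 among them) and 7 fell (Cst3, Wfdc18, Serpinb6a, Serpinh1, Serpinb5, Serping1, Serpinf1), where 17.2% of all tested genes rose and 12.8% fell (29.9% in either direction). From HR+ LP to ML, 0 rose and 5 fell (Cst3, Wfdc18, Spink5, Serpinh1, Serpinb6a), where 0.0943% of all genes rose and 6.7% fell (6.79% together). The count of 0 was the same with DESeq2 and limma voom, and 1 gene of either direction had an unadjusted p below 0.05 without being called. Between the ends of this order, ML against HR- LP, 8 were higher and 11 lower, against a background of 23.3% and 21.3% (44.6% together). The comparisons share libraries and are not independent of each other. Cst3, Wfdc18, Serpinb6a and Serpinh1 fell at both steps, as did 5.81% of all tested genes. The mean of HR+ LP lay between both other means in 25 of the 31 genes, a share near the 73.7% of all genes, and 0 of the 31 were called higher or lower in HR+ LP than in both others, as were 0.0% and 0.00629% of all genes.

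The libraries did not overlap for 16 of the 31 genes between HR- LP and HR+ LP, for 9 between HR+ LP and ML and for 19 between the ends, beside 43.9%, 27.0% and 53.1% of all tested genes. The median log2 fold change of the 31 was -0.61, -0.02 and -0.23 in the 3 comparisons, where that of all genes was 0.01, 0.01 and 0.03, and it was the same with genes at 0 in 1 population set to their lower bound. Without HR- LP replicate 3 the counts of higher and lower genes were 4 and 7, 0 and 5, and 7 and 9. All tested genes then stood at 16.9% and 12.6%, 0.239% and 7.13%, and 22.7% and 21.5%.

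**Figure D3:**
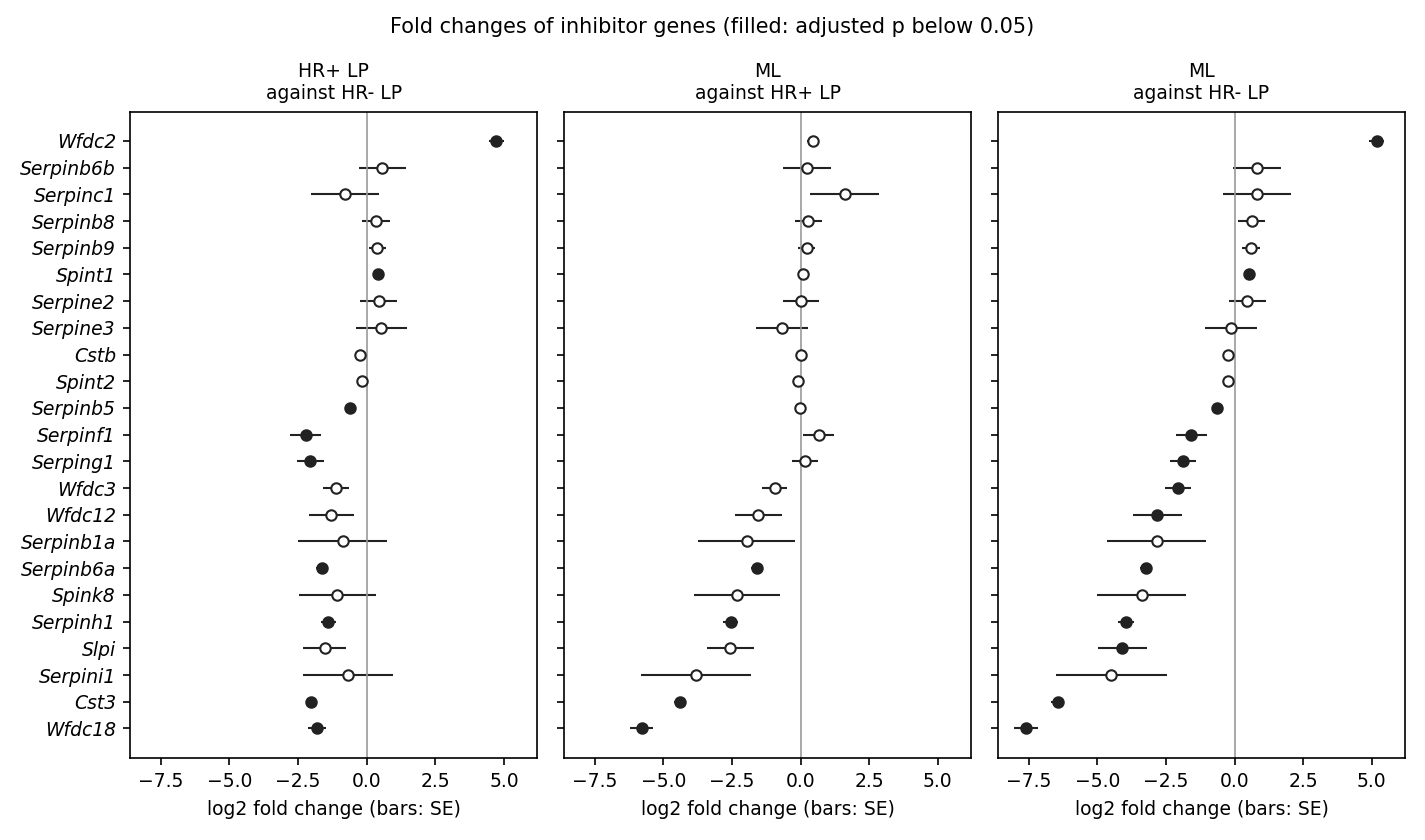
Log2 fold change with its standard error in each comparison for 23 of the 24 tested inhibitor genes that had a count in every population. Filled points have an adjusted p below 0.05. Wfdc2 stands at 4.72 in HR+ LP against HR- LP, and Wfdc18 at -5.79 and Cst3 at -4.41 in ML against HR+ LP.

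Of the 3 tested cystatin genes, Cst3 fell at both steps, Cstb did not pass the test, and Cst6 was higher in ML than in HR- LP. Cst3 (gene ID 13010, chromosome 2, 148871722 to 148875512), the secreted cystatin C that inhibits cathepsins outside the cell, was at 1677, 1390.4 and 1165 CPM in HR- LP, 320.3, 353 and 359 CPM in HR+ LP and 18.4, 12.8 and 17.5 CPM in ML. Each population was clear of the next, with no overlap. The gene fell by 2.04 on the log2 scale from HR- LP to HR+ LP (adjusted p = 2.04e-05, SE 0.18) and then fell by 4.41 from there to ML (adjusted p = 5.39e-07, SE 0.20). Macrophages also express Cst3, and 6 immune genes were summed beside it. They reached between 9.42 and 11.9 CPM in HR- LP, 4.57 and 6.28 in HR+ LP and 2.65 and 3.20 in ML, nearly all of it Cd68, while Adgre1 was at 0 in HR- LP and Ptprc at 0.537 CPM or less. The part of such cells in the fall of Cst3 was not tested.

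Cstb (chromosome 10, 78425670 to 78427622), the cytosolic cystatin B, was at 92.3, 88.8 and 108 CPM in HR- LP, 73.5, 78.0 and 94.0 CPM in HR+ LP and 73.2, 85.7 and 87.4 CPM in ML. Its log2 fold changes of -0.24 (SE 0.14), 0.00 (SE 0.14) and -0.23 (SE 0.14) did not pass the test. Per length, Cst3 stood at 1901 ± 346 RPKM and Cstb at 160.2 ± 17.1 RPKM in HR- LP, and at 21.9 ± 4.04 and 136 ± 12.9 RPKM in ML, so the order of both genes was reversed between the ends. Cst6, which encodes the secreted cystatin E/M, had 0 counts in HR- LP, 0.238, 0 and 0.131 CPM in HR+ LP and 0.301, 0.0638 and 0.353 CPM in ML. It was at least 13.2-fold higher in ML than in HR- LP (3 counts over the group taken as the floor, adjusted p = 0.0379), a call that ended in 11 of 15 alternatives, with adjusted p from 0.0223 to 0.087, among them the loss of any HR- LP or ML library. Csta1, a cystatin A gene known from skin, had 0.286 CPM in HR- LP replicate 3 and was at 0 in the other 8 libraries.

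Of the 7 tested WAP domain genes, 3 were higher and 4 lower in ML than in HR- LP, where 23.3% of all tested genes were higher and 21.3% lower. Wfdc18 (gene ID 14038, chromosome 11, 83709004 to 83711360), a secreted inhibitor that resembles whey acidic protein, was at 955, 644 and 704 CPM in HR- LP, 190.6, 212 and 251 CPM in HR+ LP and 4.19, 1.74 and 5.91 CPM in ML. The 3 populations did not overlap. It fell by 1.82 on the log2 scale at the first step (adjusted p = 0.00208, SE 0.33) and then fell by 5.79 at the second (adjusted p = 3.63e-06, SE 0.40). Wfdc2 (gene ID 67701, chromosome 2, 164562715 to 164568510), a secreted WAP protein of ducts and airways whose human counterpart is a serum marker of ovarian cancer, was at 18.3, 32.2 and 18.6 CPM in HR- LP, 598, 717 and 513 CPM in HR+ LP and 892, 917 and 707 CPM in ML. HR- LP lay below every other library, while HR+ LP and ML overlapped. Wfdc2 rose by 4.72 on the log2 scale from HR- LP to HR+ LP (adjusted p = 1.58e-06, SE 0.27), and its further difference of 0.46 in ML did not pass (adjusted p = 0.445, SE 0.23). Both genes thus differed sharply between HR- LP and ML, but on the log2 scale Wfdc2 had most of its difference at the first step and Wfdc18 at the second.

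Slpi (gene ID 20568, chromosome 2, 164354070 to 164356507), a secreted inhibitor of neutrophil elastase with antibacterial activity, was at 1.96, 9.0 and 8.19 CPM in HR- LP, 0.458, 1.90 and 4.30 CPM in HR+ LP and 0.268, 0.191 and 0.659 CPM in ML. The libraries of HR+ LP overlapped with those of both other populations. Between HR+ LP and HR- LP the difference of -1.52 did not pass (adjusted p = 0.176, SE 0.79). It passed with the replicate number as a block at -1.76 (adjusted p = 0.0299, with 0.0299 to 0.364 over the alternatives). Slpi was lower in ML than in HR- LP by a log2 fold change of -4.08 (adjusted p = 0.00356, SE 0.90, and -4.80 without ML replicate 3), a call that ended with limma voom (adjusted p = 0.0614, with 1.5e-06 to 0.0614 over all alternatives). Its difference of -2.56 between ML and HR+ LP did not pass (adjusted p = 0.142, SE 0.86) but passed with the replicate number as a block at -2.29 (adjusted p = 0.0464), and without HR+ LP replicate 1 at -3.04 (adjusted p = 0.0447), where the alternatives ran from 0.021 to 0.683. Wfdc3 (chromosome 2, 164731226 to 164745994) was at 13.0, 19.4 and 11.5 CPM in HR- LP, 8.38, 5.88 and 6.0 CPM in HR+ LP and 6.80, 1.98 and 1.84 CPM in ML. It was lower in ML than in HR- LP by -2.06 on the log2 scale (adjusted p = 0.00467, SE 0.48), and by -2.94 without ML replicate 1, the highest of the ML libraries. Without that library its difference between ML and HR+ LP (-0.95, adjusted p = 0.439) also passed, at -1.82 (adjusted p = 0.00755, with 0.00755 to 0.868 over the alternatives), and so did that between HR+ LP and HR- LP (-1.12, adjusted p = 0.0919, and adjusted p = 0.0136 without it, with 0.0068 to 0.243 over the alternatives).

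Wfdc12, Wfdc6a and Wfdc8 stayed near or below 1 CPM. Wfdc12 was lower in ML than in HR- LP (log2 fold change -2.81, SE 0.89, adjusted p = 0.024), a call that ended in 4 of 15 alternatives, with adjusted p from 0.00154 to 0.0963. These were the fit of only the populations compared and the loss of HR- LP replicate 3, ML replicate 2 or ML replicate 3. Of its 50-base windows, 10.9% lie over exons of A730032A03Rik on the opposite strand, and the library kit does not mark strand. Wfdc6a and Wfdc8 had 0 counts in HR- LP and up to 0.389 and 0.659 CPM elsewhere, at least 12.2-fold and 21-fold higher in ML (adjusted p = 0.0483 and 0.0269). Wfdc6a is uncertain, since 46.7% of its windows also occur in Wfdc6b, and its call ended in 12 of 15 alternatives. The Wfdc8 call ended without HR- LP replicate 2 or ML replicate 3. In HR+ LP against HR- LP, neither passed (adjusted p = 0.0681 for Wfdc6a and 0.0692 for Wfdc8), but both passed with DESeq2 (0.0404 and 0.0481), Wfdc6a also without ML replicate 2 (0.0495) and Wfdc8 without HR+ LP replicate 2 (0.0409). Over the alternatives they ran from 0.0404 to 0.157 and from 0.0409 to 0.219.

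Kunitz inhibitors were expressed in all populations and changed little. Spint2 (gene ID 20733, chromosome 7, 29256330 to 29282059), a membrane-anchored inhibitor of matriptase and prostasin, was at 884, 703 and 603 CPM in HR- LP, 614, 718 and 642 CPM in HR+ LP and 588, 681 and 593 CPM in ML. All 3 populations overlapped, and its log2 fold changes of -0.15, -0.08 and -0.23 (SE 0.16 each) did not pass the test. Spint1 (gene ID 20732, chromosome 2, 119237360 to 119249535), the other inhibitor of matriptase, was at 159, 127 and 129.6 CPM in HR- LP, 169, 188 and 203 CPM in HR+ LP and 174, 201 and 226 CPM in ML. Libraries of HR- LP lay below all others. Spint1 was higher in ML than in HR- LP by 0.53 on the log2 scale (adjusted p = 0.0128, SE 0.15), a call that ended without ML replicate 3 (adjusted p = 0.0583, with 0.00292 to 0.0583 over the alternatives). The rise of 0.43 in HR+ LP (adjusted p = 0.048, SE 0.15) ended in 10 of 16 alternatives, with adjusted p from 0.014 to 0.156, including the loss of any 1 library except HR- LP replicate 1 and ML replicate 1.

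Kazal genes were nearly silent apart from Spink5. Spink5 (gene ID 72432, chromosome 18, 43959545 to 44022487) encodes LEKTI, which restrains kallikreins in skin. It was at 4.36, 5.24 and 1.54 CPM in HR- LP, 1.42, 1.63 and 2.38 CPM in HR+ LP and 0 in every ML library. The CD14+ populations overlapped with each other and neither reached down to ML. Between HR+ LP and HR- LP the difference of -1.04 did not pass (adjusted p = 0.214, SE 0.57). It passed with limma voom at -1.19 (adjusted p = 0.0449, with 0.0449 to 0.45 over the alternatives). Spink5 was at least 71.9-fold lower in ML than in HR+ LP (adjusted p = 0.00056) and at least 175-fold lower than in HR- LP (adjusted p = 6.31e-05), with the floor of 3 counts over the 3 ML libraries. Spink2 had 0 counts in HR- LP, 0.124, 0.218 and 0.0657 CPM in HR+ LP and 0, 0.468 and 0.330 CPM in ML, at least 17.6-fold higher in ML than in HR- LP (adjusted p = 0.0296). That call ended in 7 of 15 alternatives, among them the loss of ML replicate 2 or 3 or HR- LP replicate 1 or 2. Its difference between HR+ LP and HR- LP (adjusted p = 0.0684) passed without ML replicate 1 (adjusted p = 0.04, with 0.04 to 0.145 over the alternatives).

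Of the 16 tested serpins, 2 rose and 5 fell in HR+ LP against HR- LP, 0 rose and 2 fell from HR+ LP to ML, and 2 were higher and 5 lower in ML than in HR- LP. These are 43.8%, 12.5% and 43.8% of the 16, beside 29.9%, 6.79% and 44.6% of all tested genes, so the last share is near the background. Per length, Serpinb5 led them in each population, at 97.1 ± 13.3, 63.6 ± 5.90 and 62.6 ± 13.5 RPKM. Serpinb5 (gene ID 20724, chromosome 1, 106861175 to 106883348), known as maspin, a serpin first found through its loss in human breast tumours, was at 284, 247 and 216 CPM in HR- LP, 166, 147 and 177 CPM in HR+ LP and 138, 143 and 201 CPM in ML. It fell by 0.61 on the log2 scale from HR- LP to HR+ LP (adjusted p = 0.0209, SE 0.17) and was lower in ML than in HR- LP by 0.63 (log2 fold change -0.63, SE 0.17, adjusted p = 0.0116), while HR+ LP and ML overlapped. The first call ended without HR+ LP replicate 1 or 2 and with scaling by library totals (adjusted p from 0.00163 to 0.0916 over the alternatives), and the second without ML replicate 1 or 2 (0.0013 to 0.0539). Basal cells of the gland also express maspin. A list of 8 basal and contractile genes summed to between 34.6 and 70.8 CPM in HR- LP, 24.8 and 39.8 in HR+ LP and 23.3 and 37.7 in ML, with Krt14 between 10.8 and 21.1 CPM in HR- LP, and their part in the difference was not tested.

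Serpinb6a (gene ID 20719, chromosome 13, 33917918 to 34002794), a cytosolic serpin whose human counterpart inhibits cathepsin G, was at 164, 182 and 125 CPM in HR- LP, 46.7, 52.3 and 53.7 CPM in HR+ LP and 16.6, 12.4 and 21.2 CPM in ML. The populations did not overlap, and it fell by 1.63 (adjusted p = 0.000184, SE 0.20) and then by 1.60 on the log2 scale (adjusted p = 0.000335, SE 0.20). Of its 50-base windows, 25.1% also occur in other genes, most often in Nqo2, 1110046J04Rik and Ripk1, whose exons it overlaps on the opposite strand. Reads there cannot be assigned with a kit that does not mark strand. Serpinb6b also shares windows with it. Serpinb9 (chromosome 13, 32997061 to 33017955), the inhibitor of granzyme B that shields cells from cytotoxic lymphocytes, was at 15.4, 22.7 and 8.34 CPM in HR- LP, 24.2, 21.5 and 15.1 CPM in HR+ LP and 25.7, 25.1 and 20.1 CPM in ML. These ranges overlapped, and its log2 fold change of 0.60 between ML and HR- LP did not pass (adjusted p = 0.145, SE 0.31). It passed without HR- LP replicate 2 (adjusted p = 0.0234) and with the replicate number as a block at 0.69 (adjusted p = 0.0265). Over the alternatives the adjusted p ran from 0.0234 to 0.336. Serpinb8 lay between 2.37 and 9.94 CPM and Serpinb6b between 0.259 and 1.53 CPM over the 9 libraries, and neither passed the test in any comparison, although Serpinb8 was called higher in both other populations once HR- LP replicate 3 was left out (adjusted p = 0.0301 in HR+ LP and 0.00806 in ML, with 0.0301 to 0.981 and 0.00806 to 0.745 over the alternatives). Serpinb1a, which in leukocytes guards against neutrophil elastase, lay between 0 and 0.751 CPM and did not pass either.

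Serpins of clades E to H are extracellular, apart from Serpinh1. Of the markers of other cell types, a list of 4 endothelial genes summed to between 5.76 and 9.48 CPM in HR- LP, 39.8 and 62.1 in HR+ LP and 58.1 and 79.6 in ML. That rise was in Vwf, while Pecam1 lay between 1.77 and 3.83 CPM, Cdh5 between 0 and 1.63 CPM and Kdr between 0.067 and 0.636 CPM over all libraries, none of them called. Serpine2, a nexin that inhibits thrombin and plasminogen activators at the cell surface, was at 4.06, 1.15 and 2.93 CPM in HR- LP, 2.0, 2.1 and 6.96 CPM in HR+ LP and 4.56, 1.26 and 5.39 CPM in ML. It did not pass in any comparison.

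Serpinh1 (gene ID 12406, chromosome 7, 99345375 to 99353239) encodes a chaperone of procollagen in the endoplasmic reticulum and inhibits no protease. It was at 111, 66.8 and 74.4 CPM in HR- LP, 42.9, 20.4 and 32.0 CPM in HR+ LP and 5.96, 5.6 and 4.80 CPM in ML, with no overlap. The fall was 1.40 at the first step and 2.55 at the second, as log2 fold changes of -1.40 (adjusted p = 0.00274, SE 0.27) and -2.55 (adjusted p = 0.000119, SE 0.28). Serping1 (gene ID 12258, chromosome 2, 84765360 to 84775444), the inhibitor of the first complement proteases, was at 4.50, 3.90 and 6.48 CPM in HR- LP, 0.686, 1.90 and 1.02 CPM in HR+ LP and 0.971, 1.30 and 1.77 CPM in ML. HR- LP lay above all other libraries, and Serping1 was lower in HR+ LP (log2 fold change -2.05, SE 0.49, adjusted p = 0.00917) and in ML (-1.87, SE 0.49, adjusted p = 0.00916).

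Serpinf1 (gene ID 20317, chromosome 11, 75410029 to 75422623), which encodes a factor that blocks vessel growth and inhibits no protease, was at 2.28, 3.09 and 2.93 CPM in HR- LP, 0.868, 0.342 and 0.559 CPM in HR+ LP and 1.11, 1.11 and 0.589 CPM in ML. Its libraries in HR- LP lay above the rest. It was lower in HR+ LP by a log2 fold change of -2.22 (adjusted p = 0.0126, SE 0.56), a call that ended without HR+ LP replicate 2 (adjusted p = 0.0524, with 0.000127 to 0.0524 over the alternatives). The lower level in ML (-1.57, SE 0.56, adjusted p = 0.0396) ended in 10 of 16 alternatives, with adjusted p from 0.00791 to 0.128, among them the loss of any ML library, of HR- LP replicate 2 or 3, or of HR+ LP replicate 3.

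Fibroblasts express Serpinf1, Serping1 and Serpinh1 strongly, and 6 fibroblast genes were looked at beside them. Their sum lay between 73.7 and 121 CPM in HR- LP, 61.3 and 268 in HR+ LP and 106 and 318 in ML, with none at 0 throughout a population. In HR+ LP against HR- LP, 5 of the 6 fell (Col1a1, Col1a2, Col3a1, Lum and Pdgfra, with log2 fold changes from -3.26 to -2.02), and Dcn rose by 3.85. Between ML and HR+ LP, where Serpinh1 fell again, Pdgfra fell with it by 2.99 on the log2 scale (adjusted p = 0.0345), from 4.96, 3.17 and 3.94 CPM to 0, 1.15 and 0.283 CPM. The differences of the other 5 fibroblast genes were positive (0.25 for Dcn, 1.03 to 1.36 for Col1a1, Col1a2, Col3a1 and Lum) and did not pass the test. The part of such cells in the inhibitor levels was not tested.

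Serpina7 (gene ID 331535, chromosome X, 139079249 to 139085236), which encodes the thyroxine carrier of plasma and inhibits no protease, was the one tested gene of clade A. It had 0 counts in HR- LP, 1.33, 0.451 and 0.789 CPM in HR+ LP and 2.65, 0.915 and 1.48 CPM in ML. Levels in HR+ LP and ML overlapped, and both lay above HR- LP. Against the floor of 3 counts over the group it was at least 53.8-fold higher in HR+ LP (adjusted p = 0.00157) and at least 90.5-fold higher in ML (adjusted p = 0.000423). Serpinc1, Serpine3, Serpinf2 and Serpini1, which encode antithrombin, a little-studied clade E serpin, antiplasmin and neuroserpin, stayed at or below 1.70 CPM in every library and did not pass in any comparison. Of the 50-base windows of Serpinc1, 33.6% also occur in other genes, and of those of Serpine3, 15.7%. Exons of Zbtb37 and Ints6 overlap them on the opposite strand, so the counts of Serpinc1 and Serpine3 are uncertain. In ML against HR- LP, Serpinf2 (adjusted p = 0.0832) passed once HR- LP replicate 2 was left out (0.0446, with 0.0446 to 1 over the alternatives), and Serpini1 (adjusted p = 0.097) passed with DESeq2 (0.0443, with 0.032 to 0.228 over the alternatives).

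The proteases that these inhibitors act on were read from a list of 60 genes. The list also holds Plaur, the urokinase receptor, and F3, a cofactor of coagulation, which are not proteases. Of the 60 genes, 39 were tested. In HR+ LP, 10 were higher and 6 lower than in HR- LP. In ML, 0 were higher and 4 lower than in HR+ LP, and 13 were higher and 9 lower than in HR- LP. The called shares were 41%, 10.3% and 56.4%, beside 29.9%, 6.79% and 44.6% of all tested genes. Without HR- LP replicate 3 the counts of higher and lower genes of this list were 11 and 7, 0 and 5, and 13 and 9. The shares of all tested genes were then 16.9% and 12.6%, 0.239% and 7.13%, and 22.7% and 21.5%. With the replicate number as a block, ML against HR+ LP gave 1 higher (Prss22) and 7 lower, the additions being Ctsl, Ctsc and St14. These are 2.56% and 17.9% of the 39, beside 0.446% and 7.88% of all tested genes with the block. The median log2 fold change of the 39 was 0.04, 0.17 and 0.03.

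Cysteine cathepsins and legumain, the partners of the cystatins, were all tested. In HR+ LP against HR- LP, 3 of 11 rose and 3 fell (27.3% each), beside 17.2% and 12.8% of all tested genes. Ctsl, which encodes the lysosomal cathepsin L, was at 536, 533 and 661 CPM in HR- LP, 254, 266 and 326 in HR+ LP and 195, 192 and 219 in ML. The populations did not overlap, and the first step was a log2 fold change of -1.03 (adjusted p = 0.000489, SE 0.15). Ctsh, an aminopeptidase, fell from 346, 306 and 252 CPM to 141, 143 and 147 CPM and then to 94.1, 77.2 and 75.8 CPM (adjusted p = 0.000374 and 0.00511). Ctsc, the activator of granule proteases, fell from 63.8, 64.6 and 48.0 CPM in HR- LP to 33.0, 23.1 and 28.2 CPM in HR+ LP (adjusted p = 0.00272). Ctsb rose, from 457, 525 and 519 CPM to 631, 705 and 769 CPM (log2 fold change 0.49, SE 0.13, adjusted p = 0.0184), a call that ended without HR+ LP replicate 2 or 3 (0.00307 to 0.0804 over the alternatives). Lgmn, the asparaginyl protease legumain that cystatin C also inhibits, rose by 0.48 (adjusted p = 0.012, SE 0.12), a call that ended without HR+ LP replicate 1 (0.00349 to 0.0548). So Cst3 fell beside Ctsl, Ctsh and Ctsc, while Ctsb and Lgmn were higher where Cst3 was lower.

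Matriptase and its relatives are the targets of the Kunitz inhibitors. St14, the matriptase gene, was at 752, 888 and 904 CPM in HR- LP, 479, 576 and 637 CPM in HR+ LP and 367, 419 and 481 CPM in ML. It fell by 0.59 on the log2 scale in HR+ LP (adjusted p = 0.0164, SE 0.16), a call that ended without HR+ LP replicate 1 or 2 (0.00082 to 0.0743 over the alternatives), and was lower in ML than in HR- LP (log2 fold change -1.01, SE 0.16, adjusted p = 0.00039). St14 and Spint1 thus moved in opposite directions between HR- LP and ML. Prss8, the prostasin gene, lay between 35.4 and 56.0 CPM in all libraries and did not pass in any comparison, although it was called lower in both other populations without HR- LP replicate 3 (adjusted p = 0.022 and 0.0261, with 0.022 to 0.278 and 0.0261 to 0.494 over the alternatives), and lower in HR+ LP also with DESeq2 (0.0359) and limma voom (0.0491). The list of membrane-anchored serine proteases also holds Hgfac and Prss22, which are secreted. Of its genes, 5 of 10 tested rose and 1 fell in HR+ LP against HR- LP. These are 50% and 10%, beside 17.2% and 12.8% of all tested genes. Tmprss4, which activates other proteases at the epithelial surface, was at 0.727, 1.06 and 2.29 CPM in HR- LP, 25.2, 40.0 and 26.3 in HR+ LP and 34.6, 62.3 and 35.0 in ML (first step 4.56 on the log2 scale, SE 0.43, adjusted p = 2.66e-05). Tmprss6, known in liver as a regulator of hepcidin, had counts in 1 HR- LP library (0.222 CPM) and stood at 7.94, 3.49 and 2.38 CPM in HR+ LP and 11.1, 4.06 and 4.64 in ML (adjusted p = 0.00214 at the first step).

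Kallikreins are secreted serine proteases that include the targets of Spink5. Of 7 tested, 1 was lower in HR+ LP than in HR- LP, 2 were lower in ML than in HR+ LP, 4 were lower in ML than in HR- LP and 0 were higher in any comparison. The lower shares were 14.3%, 28.6% and 57.1%, beside 12.8%, 6.7% and 21.3% of all tested genes, so the first is near the background. Of all tested genes, 17.2%, 0.0943% and 23.3% were higher. Klk11 was at 12.3, 28.9 and 21.1 CPM in HR- LP, 5.06, 7.05 and 10.9 in HR+ LP and 0.201, 0.191 and 0.235 in ML, with no overlap. The fall was 1.44 (adjusted p = 0.01, SE 0.35) at the first step and 5.18 (log2 fold change -5.18, SE 0.45, adjusted p = 1.93e-05) at the second, the latter with an adjusted p of 0.0782 in limma voom (1.02e-24 to 0.0782 over the alternatives). Klk10 was at 2.93, 9.92 and 21.1 CPM, then 1.10, 3.08 and 8.16 CPM, then 0, 0 and 0.188 CPM. In HR+ LP against HR- LP it passed only with the replicate number as a block (-1.50, adjusted p = 0.0186, with 0.0186 to 0.642 over the alternatives). Its call between ML and HR+ LP (adjusted p = 0.0109) ended without ML replicate 1 or 2 and with limma voom (0.000139 to 0.463). Klk14 was at 0.303, 1.0 and 1.97 CPM in HR- LP and had 3 counts in ML. In ML against HR- LP, its call ended without ML replicate 1 or 3 (adjusted p from 0.000714 to 0.0558 over the alternatives). That of Klk10 ended with limma voom (1.54e-06 to 0.0863). Without HR- LP replicate 3, 3 of the 7 kallikreins were lower in ML than in HR- LP (42.9%, beside 21.5% of all tested genes).

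Of the plasminogen activators, which Serpine2 inhibits, Plau passed the test in 1 comparison and Plat in none. Plat, tissue plasminogen activator, was at 4.06, 3.89 and 10.3 CPM in HR- LP, 3.78, 3.25 and 5.24 CPM in HR+ LP and 5.19, 1.81 and 7.04 CPM in ML, and did not pass in any comparison. Plau, the urokinase gene, was at 4.6, 4.35 and 8.05 CPM, then 5.34, 7.17 and 12.8 CPM, then 7.40, 12 and 21 CPM. Its difference of 1.26 between ML and HR- LP (adjusted p = 0.0371, SE 0.44) ended without HR- LP replicate 1 or 2, HR+ LP replicate 2 or ML replicate 2 or 3 (0.00197 to 0.187 over the alternatives).

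Of 7 tested genes on the list of complement and coagulation proteases, which includes the cofactor F3, 2 rose and 1 fell in HR+ LP against HR- LP. These are 28.6% and 14.3%, beside 17.2% and 12.8% of all tested genes. Masp1, a serine protease of the lectin pathway of complement that Serping1 inhibits, was at 29.3, 60.2 and 36.2 CPM in HR- LP, 15.3, 10.7 and 11.8 CPM in HR+ LP and 0.469, 0.0213 and 0.165 CPM in ML. Each population was clear of the next. The log2 fold changes were -1.74 (adjusted p = 0.00923, SE 0.41) and -6.01 (adjusted p = 3.76e-05, SE 0.58), the latter -7.10 without ML replicate 1 and -5.39 without ML replicate 2. Proc, which encodes the anticoagulant protein C, was at 0.787, 2.50 and 0.895 CPM in HR- LP, 44.8, 58.5 and 46.0 CPM in HR+ LP and 64.9, 65.2 and 63.1 CPM in ML (first step 5.07 on the log2 scale, adjusted p = 7.82e-06, SE 0.38, and 5.90 without HR- LP replicate 2). F2, the prothrombin gene, had 0 counts in HR- LP and 1.58, 4.11 and 2.94 CPM in HR+ LP, at least 157-fold higher (adjusted p = 6.36e-05). Of 9 leukocyte granule proteases, among them the targets of Slpi and Serpinb1a, 1 was tested (Prtn3) and 0 were called in any comparison.

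**Figure D4:**
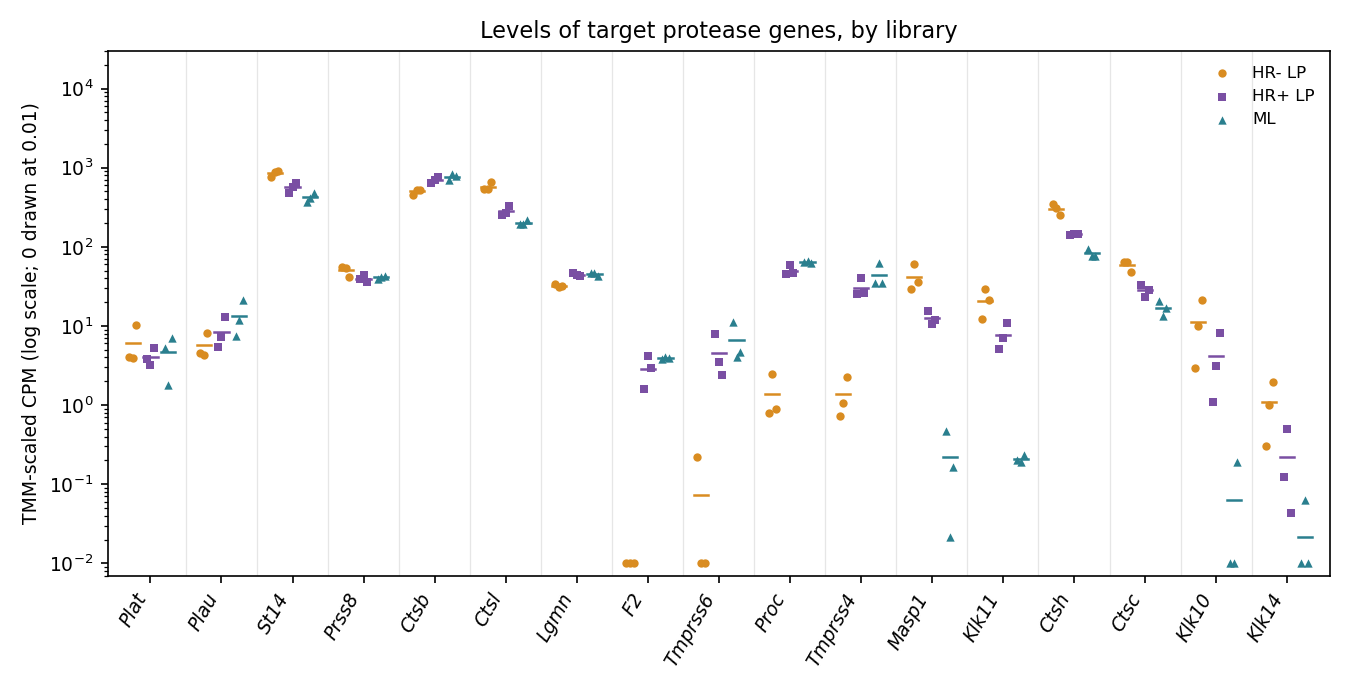
Level of 17 named protease genes in each of the 9 libraries, in TMM-scaled CPM on a log axis, with one point per library and one colour per population. Masp1, Klk11, Klk10 and Klk14 are lowest in ML, while Proc, Tmprss4, Tmprss6 and F2 are lowest in HR- LP.

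Inhibitors of other families were read from a list of 33 genes, of which 15 were tested. In HR+ LP against HR- LP, 2 rose and 4 fell, in ML against HR+ LP 0 rose and 1 fell, and in ML against HR- LP 3 were higher and 5 lower, with the same counts when HR- LP replicate 3 was left out. The called shares were 40%, 6.67% and 53.3%, beside 29.9%, 6.79% and 44.6% of all tested genes, and the second is near the background. Without that library, 29.5%, 7.37% and 44.1% of all tested genes were called. Timp3, a matrix-bound inhibitor of metalloproteases, was at 101, 194 and 184 CPM in HR- LP, 44.0, 54.4 and 76.7 CPM in HR+ LP and 3.68, 2.72 and 4.14 CPM in ML. It fell at both steps without overlap (log2 fold changes -1.45, adjusted p = 0.00257, SE 0.27, and -4.06, SE 0.31, adjusted p = 7.16e-06). The 2 genes called higher in HR+ LP were Itih2 and Itih5. They encode heavy chains that bind hyaluronan in partnership with a Kunitz inhibitor and are not themselves the inhibitor. Both were at their lowest in HR- LP, as was Wfdc2. Itih5 was at 27.9, 83.7 and 49.6 CPM in HR- LP, 379, 352 and 333 CPM in HR+ LP and 506, 503 and 427 CPM in ML (first step 2.72 on the log2 scale, SE 0.32, adjusted p = 0.000121). Itih2 was at 0.605, 1.80 and 0.215 CPM in HR- LP, 53.6, 45.9 and 51.9 CPM in HR+ LP and 105, 79.5 and 101 CPM in ML (first step 5.66, adjusted p = 1.61e-05, SE 0.49, and 6.81 without HR- LP replicate 2). Pi16 was called lower in HR+ LP than in HR- LP, a call that ended in 0 of 16 alternatives (log2 fold change -3.05 to -2.02). In ML against HR- LP, Timp4 was called higher and Pi16 and Reck lower. These calls ended in 2 of 15, 5 of 16 and 0 of 16 alternatives.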

How the data were processed

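RNA of 9 libraries was measured in 3 sorted populations. Per the labels' protocols, total RNA was extracted with a miRNeasy kit, treated with DNase and at least 50 ng of it went into each TruSeq RNA v2 library, a kit that does not mark strand. Raw gene counts were deposited by the authors, tied to featureCounts and the build mm10 by the submitters' processing notes; the aligner, the annotation and how multiply mapped reads were treated are not given in the sources used here. The table of the series and the files of single samples differed in 0 values.

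NCBI gene IDs were matched to RefSeq symbols for 25275 genes (93.0%), and 1904 stayed unnamed but were kept in the tests. Genes passing edgeR's filterByExpr (15910) were scaled by TMM factors and tested by quasi-likelihood F test (edgeR) in 1 fit of all 9 libraries, with Benjamini-Hochberg adjustment over these genes and calls below 0.05. SE is the absolute log2 fold change divided by the square root of F. Tests ran in edgeR 4.0.16, DESeq2 1.42.0 and limma 3.58.1 under R 4.3.3, and summaries in pandas 2.3.3 and matplotlib 3.10.9 under Python 3.11.15. The procedure was tested on simulated data. Shared sequence was counted as 50-base windows of exons.

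Depth of 27219103 counts or more leaves the precision of genes above a few CPM to the spread between libraries. Counts of 0 were read against a floor of 3 counts over a population, which covers counting error only. Between HR+ LP and ML, libraries with the same number deviated together from their means, with correlations of 0.183, 0.121 and 0.189 across genes. These numbers may therefore pair libraries, from the data and not from the labels.

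The symbol rule and the lists were set with earlier results of these data known. Genes called at an absolute log2 fold change over 1 and a mean of 1 CPM were described with library values, up to 8 in each direction (4 for proteases and other inhibitors), together with a fixed set of well-known inhibitors and proteases. Timp4, Pi16 and Reck met this rule but are given without library values. Prss22, Prtn3 and the low genes outside this rule were named after their values were seen. Alternatives were DESeq2, limma voom, library totals, other filters, fits of 2 populations, a replicate block and each library left out. Members among the unnamed IDs would be missed, so 109 may be an undercount. Of the members, 1 is counted in the totals, but its own results are not reported here.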

Additional observations from a re-analysis of the deposited data

How the results depend on the processing

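All 4 genes that fell at both steps, and Wfdc2, Serpina7, Serping1 and the Spink5 difference of ML, kept their direction and their calls under DESeq2, limma voom, library totals, both other filters, the fit of 2 populations, the replicate block and the loss of any 1 library. Inhibitor genes higher in ML than in HR- LP numbered 8, but 5 with limma voom and 4 with a filter at 1 CPM in 3 libraries, which leaves the other 4 of these low genes untested. They numbered 3 to 7 when 1 library was left out, with 3 without ML replicate 3 and 5 without HR- LP replicate 1 or 2. The cause of the other losses was not tested. Genes of the protease list higher in ML than in HR+ LP numbered 0, but 1 with DESeq2, 1 in the fit of 2 populations and 1 with the replicate block. Those lower numbered 4, but 2 with limma voom and 7 with the replicate block. With 1 library left out, the inhibitor counts ran from 3 to 5 higher and 5 to 8 lower for HR+ LP against HR- LP, 0 higher and 5 to 6 lower for ML against HR+ LP, and 8 to 11 lower for ML against HR- LP, and expressed genes numbered 18 to 19. Expressed genes numbered 26 at a threshold of 0.1 CPM, 21 with 2 of 3 libraries and 13 at 5 CPM. Same-numbered libraries of the other comparisons correlated at 0.0389 to 0.147 (HR+ LP against HR- LP) and 0.0254 to 0.0849 (ML against HR- LP). Each library still correlated best with its own number, so whether the numbers pair libraries there is not settled. A replicate block there gave 13 and 17 called inhibitor genes, where 11 and 19 were called without it. Over all tested genes the called share was 34.3% and 47.8% with the block and 29.9% and 44.6% without it. The block added Slpi and Wfdc3 in the first comparison. In the second it added Serpinb9 (0.69, adjusted p = 0.0265) and Serpini1 (adjusted p = 0.032) and lost Cst6, Serpinf1, Spink2 and Wfdc6a. Klk10 (-1.50, adjusted p = 0.0186) was among the proteases it added in the first. Scaling by library totals moved the median log2 fold change of all genes from 0.01 to 0.12 (HR+ LP against HR- LP) and from 0.03 to 0.19 (ML against HR- LP), and the share of calls that were higher from 57.3% to 67.5% over all genes in the first, and from 36.4% to 40.0% among the inhibitors. Over all named genes and alternatives, no called difference changed sign. Depth limits genes under about 1 CPM, among them Cst6, Spink2, Wfdc6a and Wfdc8.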
